A study of Mus musculus with 6 samples.

Results

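The genes described here are a set of 10 grouped as activity-induced inhibitors of ERK and other MAPK signalling. They are Dusp1, Dusp3, Dusp4, Dusp5, Dusp6, Dusp14, Spry2, Spry4, Spred1 and Spred2, taken by gene symbol from a table of 22000 symbols. Their induction by activity was not measured here. RNA-seq was carried out on the prefrontal cortex (PFC) of male C57BL/6N mice at 9 weeks, with 3 control mice, 3 mice after early life stress (ELS) and 1 library per mouse. ELS mice were wild-type mice housed singly under a filter cap after weaning, and control mice were wild-type mice co-housed without a filter cap, so that isolation and the filter cap cannot be told apart. According to the study's methods behaviour was assessed before dissection, and control and ELS mice were taken from litters of one mother. The comparison asks whether ELS altered the level of these transcripts in the PFC. All 10 were found in the table, and all 10 passed the expression filter of at least 1 CPM, read counts scaled to the library size, in every mouse of a group, which 13185 genes passed.

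A mitogen-activated protein kinase (MAPK) cascade carries growth factor and synaptic signals from Ras through Raf and MEK to ERK, which enters the nucleus and switches on immediate early genes in active neurons. ERK activity also raises the transcripts of some of its own inhibitors, which then close the loop. Dual-specificity phosphatases (Dusp) remove the phosphates from the activation loop of MAPKs, while Sprouty (Spry) and Spred proteins act further up, between the receptor and Raf.

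In ELS mice the mean of each of the 10 genes was lower than in control mice, with log2 fold changes from -0.38 for Dusp4 to -0.06 for Spred1. None of the 10 passed the adjusted threshold. Dusp1 (log2 fold change -0.34), Dusp4 (-0.38), Dusp5 (-0.36), Dusp14 (-0.15) and Spred2 (-0.24) had an unadjusted p under 0.05. The calls used the study's own thresholds, an adjusted p under 0.05 together with a log2 fold change beyond 0.3 in either direction, and came from edgeR's quasi-likelihood test on all 13185 genes. Of these genes 0.0152% were called, 4.23% had an unadjusted p under 0.05 in either direction, and 52.5% had a log2 fold change below 0. DESeq2 called 0.137% of all genes and 0 of the 10. At an unadjusted p under 0.05 the 10 held 5 genes by the quasi-likelihood test and 4 by DESeq2, which had 3.72% of all genes there. The median log2 fold change of the 10 was -0.14, against -0.0046 over all genes tested.

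The promoter windows of Dusp1, Dusp5 and Spred2 are shown because these 3 genes had an unadjusted p under 0.05 and a match to a searched motif. Dusp14 was also under 0.05, but its window held no match, and Dusp4 had no window. In Spred2 the only match is to the short TGACG, searched on both strands and found in 20.8% of all windows. Any link between the motifs and the lower levels was not tested. The windows are from RefSeq on GRCm38.p6, the assembly also named mm10, and run from 250 bases before to 50 bases after the annotated start. Capitals mark every match to a searched motif. The window of Dusp1 lies at chr17:26508423-26508722 on the minus strand, that of Dusp5 at chr19:53528895-53529194 on the plus strand, and that of Spred2 at chr11:19924192-19924491 on the plus strand.
Dusp1: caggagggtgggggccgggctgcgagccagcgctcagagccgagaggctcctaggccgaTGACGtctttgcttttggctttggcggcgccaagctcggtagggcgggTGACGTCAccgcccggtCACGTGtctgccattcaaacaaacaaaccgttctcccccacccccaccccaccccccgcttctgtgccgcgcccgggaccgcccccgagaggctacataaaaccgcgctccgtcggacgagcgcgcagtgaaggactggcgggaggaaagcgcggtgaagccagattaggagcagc
Dusp5: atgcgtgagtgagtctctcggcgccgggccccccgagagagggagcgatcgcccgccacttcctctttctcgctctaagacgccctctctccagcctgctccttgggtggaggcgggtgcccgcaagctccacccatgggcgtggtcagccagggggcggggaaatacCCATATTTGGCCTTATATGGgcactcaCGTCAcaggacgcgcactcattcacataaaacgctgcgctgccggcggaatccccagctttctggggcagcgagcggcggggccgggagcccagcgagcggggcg
Spred2: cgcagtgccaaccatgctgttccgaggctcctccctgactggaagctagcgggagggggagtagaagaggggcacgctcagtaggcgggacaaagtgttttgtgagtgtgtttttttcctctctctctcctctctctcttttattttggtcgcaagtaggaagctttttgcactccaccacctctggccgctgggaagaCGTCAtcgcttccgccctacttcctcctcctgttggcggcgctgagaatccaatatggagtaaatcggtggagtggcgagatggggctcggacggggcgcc

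Motifs were searched on both strands in these windows, and windows were found for 8 of the 10 genes. Dusp4 and Spry4 had none in the table and were not searched. The cAMP response element, CRE (TGACGTCA), is bound by CREB, and the Dusp1 window holds it from -143 to -136, counted from the start base as 0. It stands in 1.79% of all 32851 promoter windows in the table. The CRE core (TGACG), which the full element contains on both strands, occurs in the windows of Dusp1, Dusp5 and Spred2, and in 20.8% of all windows. In Dusp1 a further core lies from -191 to -187, apart from the full element. In both other genes the core is on the opposite strand, from -51 to -47 in Spred2 and from -55 to -51 in Dusp5. The CArG box is the site of serum response factor, through which ERK reaches immediate early genes. Dusp5 holds 2 CArG boxes side by side, CCATATTTGG from -82 to -73 and CCTTATATGG from -72 to -63, and 1.63% of all windows hold one. The E-box (CACGTG), found in 7.15% of all windows, lies in the Dusp1 window from -126 to -121. The letters of the AP-1 site (TGANTCA), the ETS site (CCGGAAGT), the glucocorticoid response element and the TATA box (TATAAA) are in none of the 8 windows, against 7.81%, 3.89%, 0.475% and 13.6% of all windows. The GC content of the 8 windows ran from 57.0% for Spred2 to 72.3% for Spred1, with a median of 52.7% over all windows.

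Dusp1 encodes a nuclear phosphatase of ERK, JNK and p38 that is itself an immediate early gene. On GRCm38 its GENCODE span, which joins 6 annotated transcripts, runs from 26505590 to 26562128 of chromosome 17, minus strand. The RefSeq start used for the promoter window lies inside this span and not at its end. Control mice 1, 2 and 3 had 32.7, 30.7 and 36.8 CPM after scaling by the TMM factors of edgeR, and ELS mice 1, 2 and 3 had 24.0, 26.7 and 28.5 CPM. The groups were fully separated, and the highest ELS mouse stood close under the lowest control mouse. The control mean was 33.4 ± 3.13 CPM and the ELS mean 26.4 ± 2.25 CPM (SD, n = 3 each). The log2 fold change of -0.34 had a 95% interval from -0.54 to -0.14 (unadjusted p = 0.00282, adjusted p = 0.714, edgeR's quasi-likelihood test). By this p Dusp1 was ranked 52 of all genes tested.

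Dusp5, a nuclear phosphatase that acts on ERK and holds it in the nucleus, lies on chromosome 19 from 53529109 to 53542431 (plus strand). Control mice had 12.02, 12.4 and 12.7 CPM, and ELS mice had 9.63, 10.4 and 8.93 CPM. The groups did not overlap, and the control mice differed from each other by less than the ELS mice did. The means were 12.4 ± 0.347 CPM and 9.67 ± 0.755 CPM (SD, n = 3 each), and the log2 fold change was -0.36 with a 95% interval from -0.58 to -0.13 (unadjusted p = 0.00445, adjusted p = 0.861, edgeR's quasi-likelihood test). A noncoding antisense gene, AC137853.2, overlaps 22.1% of the annotated Dusp5 exons. The strand setting of the counting is not given in the sources used here, so reads of the pair could be mixed.

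Dusp4 encodes another nuclear phosphatase of ERK and JNK and lies on chromosome 8 from 34807297 to 34819894 (plus strand). Its CPM values were 9.84, 8.25 and 6.32 in control against 7.02, 6.26 and 5.49 in ELS mice. The groups overlapped, because control mouse 3 was below ELS mouse 1. With a log2 fold change of -0.38 and a 95% interval from -0.74 to -0.02, Dusp4 had the largest fold change and the widest interval of the 10 (unadjusted p = 0.0393, adjusted p = 1.0, edgeR's quasi-likelihood test). It was also the gene with the fewest reads, from 177 to 303 per mouse. The spread between control mice was 21.7% of their mean, against 6.67% that counting error alone would give.

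Dusp6 encodes the cytoplasmic phosphatase that is selective for ERK, and is a common readout of ERK activity. It lies on chromosome 10 from 99263231 to 99267489 (plus strand). Control mice had 94.8, 81.1 and 79.6 CPM, and ELS mice had 82.1, 83.9 and 66.4 CPM. The groups overlapped, with control mouse 1 high and ELS mouse 3 low against the other 4 mice, which stood between 79.6 and 83.9 CPM. The log2 fold change was -0.14 with a 95% interval from -0.35 to 0.07 (unadjusted p = 0.184, edgeR's quasi-likelihood test), and the difference was within the spread between mice. The interval reaches past the fold threshold of 0.3 on the lower side, so a difference of that size could not be told from none here.

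Dusp3 and Dusp14 encode small phosphatases that lack the kinase-binding domain of the larger ones. Dusp14, on chromosome 11 from 84048041 to 84069261 (minus strand), had 68.3, 63.5 and 65.2 CPM in control against 61.7, 59.9 and 55.8 CPM in ELS mice. The groups did not overlap, and the log2 fold change was -0.15 with a 95% interval from -0.30 to -0.0025 (unadjusted p = 0.0468, adjusted p = 1.0, edgeR's quasi-likelihood test). Dusp3, on chromosome 11 from 101971143 to 101987013 (minus strand), had 330, 346 and 318 CPM in control against 309, 326 and 313 CPM in ELS mice. Its groups overlapped, and the log2 fold change of -0.07 had a 95% interval from -0.21 to 0.07. This interval lies inside 0.3 on either side. An antisense noncoding gene, Gm20659, overlaps 12.9% of the Dusp3 exons, with the same limit from the strand setting as for Dusp5.

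**Figure D1:**
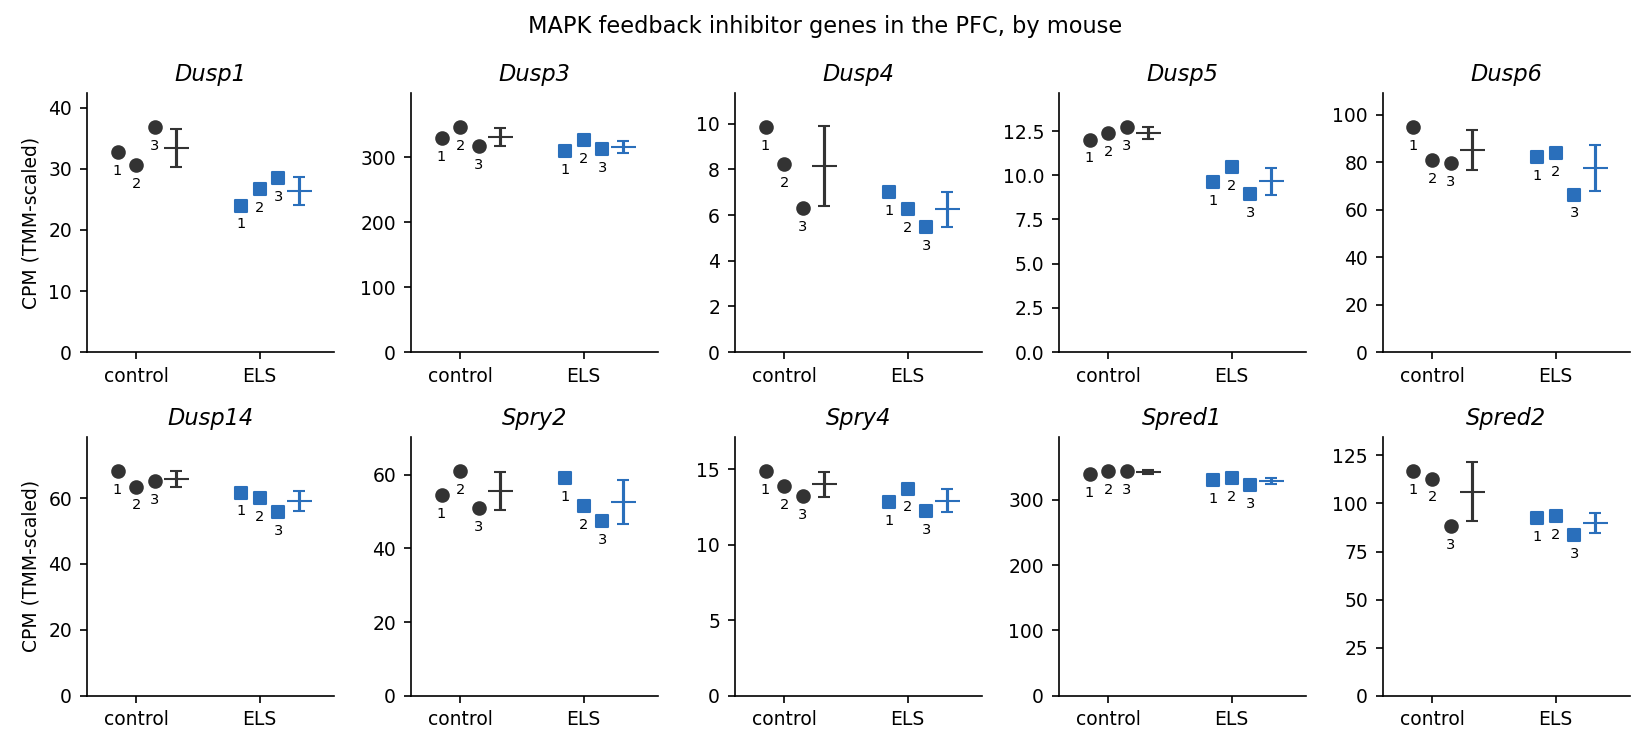
TMM-scaled CPM of each of the 10 genes (y axis, from 0) in control mice (black circles) and ELS mice (blue squares). Digits are mouse numbers, and the bar beside each group is the mean ± SD of 3 mice. Dusp1, Dusp5, Dusp14 and Spred1 show groups that do not overlap, while the control mice spread from 88.4 to 117 CPM in Spred2.

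Spry2 and Spry4 encode Sprouty proteins, which hold back Ras and Raf after receptor tyrosine kinases are activated. Spry2, on chromosome 14 from 105891947 to 105896819 (minus strand), had 54.5, 61.1 and 50.9 CPM in control against 59.2, 51.5 and 47.4 CPM in ELS mice. ELS mouse 1 was above control mice 1 and 3, and the log2 fold change of -0.08 had a 95% interval from -0.28 to 0.13. Spry4, on chromosome 18 from 38586247 to 38601415 (minus strand), had 14.9, 13.9 and 13.2 CPM in control against 12.9, 13.7 and 12.2 CPM in ELS mice. Its groups overlapped through ELS mouse 2 and control mouse 3, with a log2 fold change of -0.11 and a 95% interval from -0.32 to 0.09. Neither gene passed the test, with unadjusted p of 0.431 for Spry2 and 0.253 for Spry4 in edgeR's quasi-likelihood test.

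Spred1 and Spred2 encode membrane proteins that bring neurofibromin, a Ras inactivator, to Ras. Spred2, on chromosome 11 from 19924375 to 20024026 (plus strand), had 117, 113 and 88.4 CPM in control against 92.3, 93.5 and 83.6 CPM in ELS mice. Control mice 1 and 2 were above all ELS mice, and control mouse 3 was below ELS mice 1 and 2. The log2 fold change was -0.24 with a 95% interval from -0.45 to -0.03 (unadjusted p = 0.0289, adjusted p = 1.0, edgeR's quasi-likelihood test). Without control mouse 3 it was -0.36 and passed both thresholds, with an adjusted p of 0.048 in edgeR's quasi-likelihood test. Calls were more frequent over all genes in that fit too, with 29 of 13212 called against 2 with all 6 mice, and 11.7% at an unadjusted p under 0.05 against 4.23%. Over all settings that were run, the adjusted p of Spred2 lay between 0.0294 and 1.0. Spred1, on chromosome 2 from 117121374 to 117182279 (plus strand), had 339, 344 and 344 CPM in control against 330, 333 and 323 CPM in ELS mice. Its groups did not overlap, although the log2 fold change was -0.06 with a 95% interval from -0.19 to 0.07. The spread of Spred1 was 0.829% of the mean in control mice, below the 0.98% of counting error alone. The quasi-likelihood test of edgeR draws the variation of a gene towards that of all genes, and gave an unadjusted p of 0.331.

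**Figure D2:**
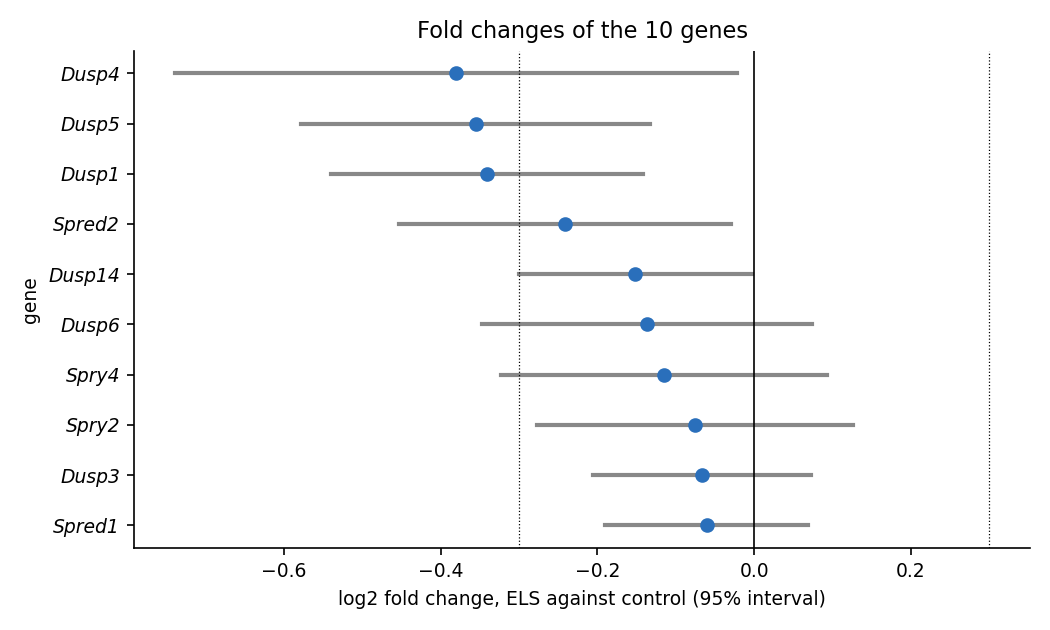
Log2 fold change of ELS against control mice (x axis) for the 10 genes (y axis), with 95% intervals from edgeR's quasi-likelihood test as grey lines. Dotted lines mark 0.3 on either side. All 10 points lie below 0, and the intervals of Dusp4, Dusp5, Dusp1, Spred2 and Dusp14 do not reach 0.

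Over the 10 genes, 4 had all ELS mice below all control mice and 0 had the reverse. The first pattern held for 4.47% of all genes tested. Of the 45 pairs of the 10 genes, 44 had a Pearson correlation above 0 over the 6 mice, group difference included, and 11 were above 0.8. The median was 0.644, given as a description, since all pairs share the same 6 libraries and all 10 genes had the lower mean in ELS mice. Dusp5 and Spred1 had the highest value, at 0.986, and Dusp4 and Spred2 followed at 0.958. Dusp1 stood apart from Dusp6 and Spry2, with 0.151 and -0.225.

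The highest of the 6 mice was always a control mouse, namely control mouse 1 for 5 genes, control mouse 3 for 3 and control mouse 2 for 2. The lowest was ELS mouse 3 for 8 genes and ELS mouse 1 for Dusp1 and Dusp3. Both patterns go in part with the lower ELS mean of all 10 genes, and neither was counted over all genes tested. The mean of the standardised log2(CPM + 1) values over the 10 genes was 0.95, 0.77 and 0.15 for control mice 1, 2 and 3, against -0.41, -0.24 and -1.22 for ELS mice 1, 2 and 3. Control mouse 3 thus stood nearest to the ELS mice. It had the highest Dusp1, Dusp5 and Spred1 of the 6 mice, but the lowest Dusp3, Dusp4, Dusp6, Spry2, Spry4 and Spred2 of the control mice.

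**Figure D3:**
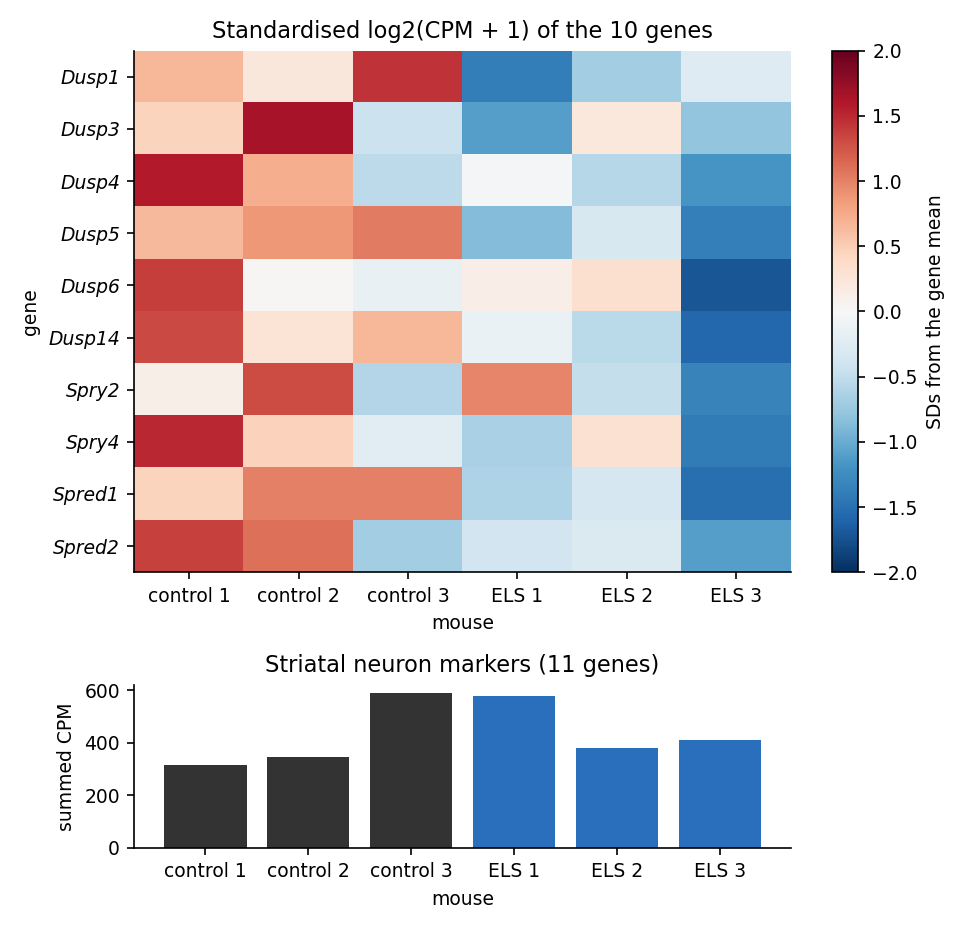
Upper panel, log2(CPM + 1) of the 10 genes (rows) in the 6 mice (columns), as SDs from the mean of each gene. Lower panel, summed CPM of 11 striatal neuron markers in the same mice. ELS mouse 3 holds the lowest value of 8 genes, and control mouse 3 and ELS mouse 1 have the highest striatal sums, at 591 and 579 CPM.

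Total counts ran from 28405795 to 35241743 per mouse, with the ELS libraries all deeper than the control libraries. Markers of cortical excitatory neurons summed to between 2052 and 2370 CPM in the control group and between 2098 and 2334 CPM in the ELS group, and all 8 were detected in every mouse. Striatal neuron markers were present as well. Their sum over 11 genes was 317, 345 and 591 CPM for control mice 1, 2 and 3 against 579, 381 and 410 CPM for ELS mice 1, 2 and 3, and 10 of the 11 had a log2 fold change above 0, with a median of 0.19 and 0 called. With the level of these markers as a covariate, all 10 feedback genes had a log2 fold change below 0, with a median of -0.14. In that fit Dusp4 was at -0.32, with an unadjusted p of 0.0586 that was no longer under 0.05 (edgeR's quasi-likelihood test). Spred2 was at -0.18 and Dusp14 at -0.16, with unadjusted p of 0.0171 and 0.0172 in the same edgeR test, and the adjusted p of Dusp1 was 0.0933 against 0.714 without the covariate. Of the 8 cortical markers, 8 had a log2 fold change below 0, with a median of -0.07. The medians of the other lists were -0.01 for neurons, -0.04 for astrocytes, -0.01 for oligodendrocytes, 0.08 for their precursors, 0.02 for microglia, 0.06 for endothelial cells and pericytes, and 0.02 for blood, and only 1 choroid plexus marker was tested, at 0.36. Of the 8 endothelial and pericyte markers, 2 had an unadjusted p under 0.05, both higher in ELS mice. By cell counts in PFC sections, the study reported slightly fewer NeuN+ neurons and slightly more Iba1+ microglia in ELS mice. The part of cell composition in the lower feedback genes was not tested, and in bulk tissue fewer cells of a type and less RNA per cell cannot be told apart.

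Per kilobase of annotated exon, Dusp3 had the highest level of the 10 in control mice, at 70.8 ± 3.07 CPM per kb (SD, n = 3). Spred1 followed at 50.5 ± 0.419, then Dusp14 at 33.8 ± 1.25, Dusp6 at 27.2 ± 2.68, Spry2 at 26.6 ± 2.47 and Spred2 at 23.0 ± 3.36 CPM per kb. The lower end was formed by Dusp1 at 10.1 ± 0.946, Dusp5 at 5.01 ± 0.140, Dusp4 at 2.97 ± 0.644 and Spry4 at 2.95 ± 0.178 CPM per kb. The median of all genes with a matched length was 6.45 CPM per kb, and 7 of the 10 stood above it. Dusp6 and Spry2, Spry2 and Spred2, and Dusp4 and Spry4 did not differ beyond their spread, and in ELS mice the first and last of these pairs changed places. The 3 nuclear phosphatase genes, which had the largest fold changes, were thus among the 4 lowest in level. Exon lengths are those of all annotated transcripts joined, which can be longer than the transcripts used in PFC.

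All 10 remained below 0 in all 18 other settings that were run, which left out mice or changed the test, the scaling, the filter or the covariates. At an unadjusted p under 0.05 the count of 5 was 2 without control mouse 1, 3 without control mouse 2, 3 without ELS mouse 2 and 2 without ELS mouse 3. The share of all genes in these fits was 4.16%, 3.11%, 3.88% and 2.77%. Dusp1 and Dusp5 were among them in every setting. With 1 mouse left out, the log2 fold change ranged from -0.40 to -0.27 for Dusp1, from -0.42 to -0.30 for Dusp5, from -0.53 to -0.22 for Dusp4 and from -0.36 to -0.16 for Spred2. That of Dusp6 ranged from -0.20 to -0.04 and that of Spry2 from -0.17 to -0.0013. For Dusp3 it ranged from -0.10 to -0.03, nearest to 0 without control mouse 2, and for Spry4 from -0.16 to -0.07, nearest to 0 without control mouse 1. Because the groups of Dusp1, Dusp5, Dusp14 and Spred1 did not overlap, leaving out a mouse could not turn their direction.

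**Figure D4:**
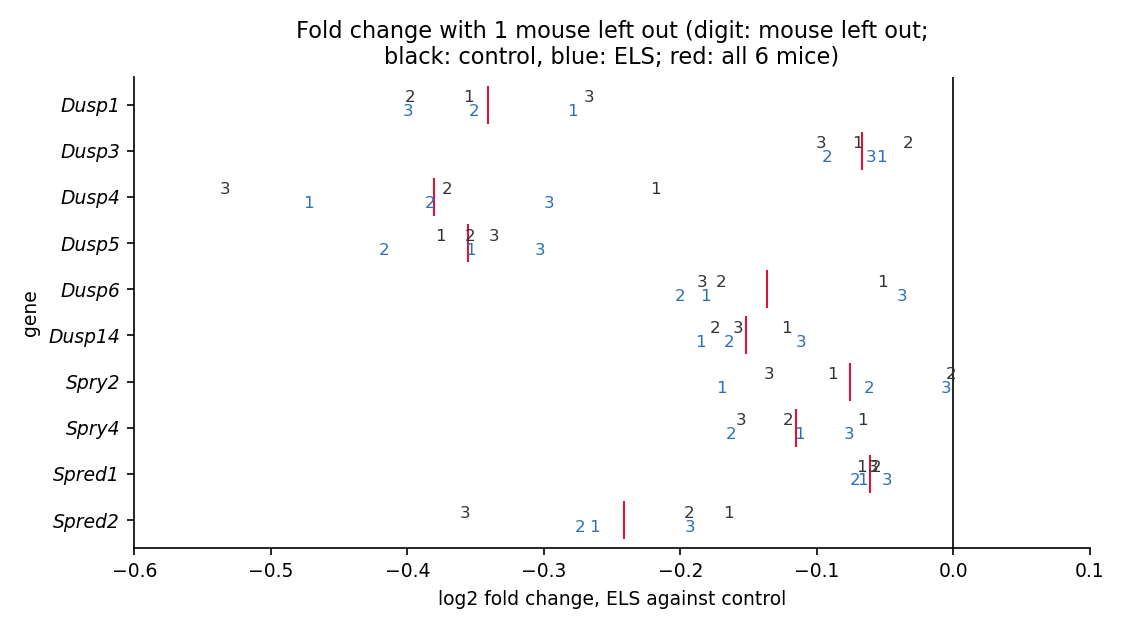
Log2 fold change (x axis) of each of the 10 genes (y axis) with 1 mouse left out. The digit is the number of the mouse left out (black for control, blue for ELS), and the red line is the value with all 6 mice. Leaving out control mouse 3 gave -0.53 for Dusp4 and -0.36 for Spred2, and leaving out control mouse 2 brought Spry2 to -0.0013.

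The other genes of the pathway were described by 8 lists with 126 genes, of which 118 were tested. The quasi-likelihood test called 0 of them, with 11 at an unadjusted p under 0.05, and DESeq2 called 3. The ERK target genes, which hold immediate early genes such as Fos and Egr1, had 10 of 20 at an unadjusted p under 0.05, all 10 lower in ELS mice. Their median log2 fold change was -0.18. Egr1, a zinc finger transcription factor, had a log2 fold change of -0.70 (adjusted p = 0.322), Fos one of -0.67 (adjusted p = 0.374), and Egr2 one of -0.55 (adjusted p = 1.0), by the same edgeR test. The 3 genes that DESeq2 called were Fos, Nr4a1 and Arc. The study chose these on the same mice, so this list is not independent evidence of its direction.

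The lists of the kinases and receptors stood closer to 0. The ERK cascade core, from adaptors and Ras to ERK and its S6 kinases, had 13 of 26 genes below 0, with a median log2 fold change of 0.0018 and 0 at an unadjusted p under 0.05. Its smallest p was that of the scaffold Ksr1, with a log2 fold change of -0.19 (unadjusted p = 0.0891, edgeR's quasi-likelihood test). The JNK, p38 and ERK5 cascades had a median of -0.03 over 17 genes, and the smallest p there was 0.0689 for the p38 activator Map2k3, at -0.22. Growth factor ligands had a median of 0.02 over 17 genes, and receptors one of 0.03 over 13 genes. The ligand with the smallest p was Igf1, at 0.21 (unadjusted p = 0.120, edgeR's quasi-likelihood test). Pdgfrb, a pericyte receptor, was the receptor at an unadjusted p under 0.05, at 0.28 (unadjusted p = 0.0251, adjusted p = 1.0, edgeR's quasi-likelihood test).

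The remaining inhibitors were described in the same way. The other MAPK phosphatases had 4 tested genes with a median log2 fold change of -0.05, and Dusp16, a JNK phosphatase, had the smallest p at 0.22 (unadjusted p = 0.0526, edgeR's quasi-likelihood test), with the higher mean in ELS mice. Dusp2 and Dusp9 did not pass the filter, with at most 32 and 35 reads in a mouse. The other small dual-specificity phosphatases had a median of -0.02 over 7 genes, and the smallest p was that of Dusp23, at -0.36 (unadjusted p = 0.0716, edgeR's quasi-likelihood test). The further ERK restraints, which include Nf1, had a median of 0.0065 over 14 genes, 5 of them below 0, and Dab2ip had the smallest p at -0.10 (unadjusted p = 0.220, edgeR's quasi-likelihood test). In these 3 lists the count of genes at an unadjusted p under 0.05 was 0 by that test, and DESeq2 called 0. The difference between the 10 genes and these lists was not tested.

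**Figure D5:**
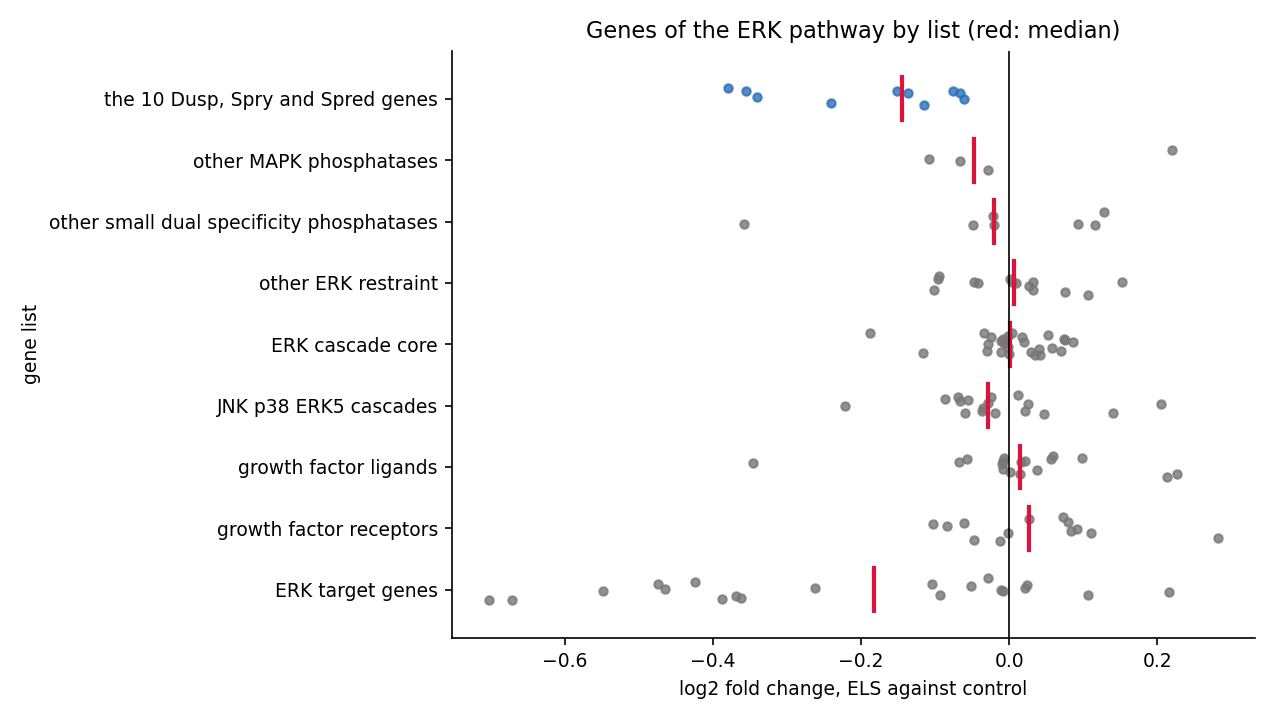
Log2 fold change of ELS against control mice (x axis) for each tested gene of the 10 feedback genes (blue) and of the 8 other lists of the pathway (grey), with the median of each list in red. The median is -0.14 for the 10 genes and -0.18 for the ERK target genes, and lies between -0.05 and 0.03 for the other 7 lists.

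Among the genes whose profile over the 6 mice was most like the mean standardised profile of the 10 were Egr1, Per2, Gdpd5 and Piga, out of 13175 compared. Their Pearson correlations with it were 0.988, 0.979, 0.978 and 0.976, and 104 genes were above 0.9. Each of these 4 had groups that did not overlap, so that the group difference enters these values. Egr1 had 310, 276 and 202 CPM in control against 177, 175 and 131 CPM in ELS mice. As in the mean profile of the 10 genes, control mouse 3 was the lowest control mouse and ELS mouse 3 the lowest of all.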

How the data were processed

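PFC RNA of 3 control and 3 ELS mice was sequenced as paired-end reads. The authors deposited raw counts per gene symbol, neither normalized nor pooled. Trimmomatic was used for trimming, STAR for alignment to mm10 and HTSeq for counting of uniquely mapped reads. The submitters' processing notes name STAR 2.7.1a and HTSeq 0.9.1, and the paper another STAR version. The annotation release is not given in the sources used here. The columns named SI were matched to the ELS mice by their number, SI standing for social isolation.

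The analysis used edgeR 4.0.16 under R 4.3.3. The filter required 1 CPM or more in every mouse of either group, TMM factors were computed, and a quasi-likelihood model with group as its term was fitted. P-values were adjusted over all 13185 genes by the Benjamini-Hochberg method. An exact permutation test, whose smallest two-sided p is 0.1 for 3 against 3 mice, was not used. Intervals are based on the F statistic. Replicate libraries were not copies of each other, since chi-square divided by its degrees of freedom was 6.25 or more for each pair. DESeq2 1.42.0, limma 3.58.1, other normalizations and filters, a replicate block, a striatal covariate and leaving out each mouse were the alternatives. The test was checked on simulated counts. Positions and exon lengths are from GENCODE M21 on GRCm38.

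The 10 genes and all lists were chosen with earlier results of these data known. The genes named are the 10; in each pathway list those called, up to 3 at an unadjusted p under 0.05 by fold change, or otherwise that with the smallest p; and the 5 most similar profiles, of which 1 is not reported here. Nr4a1, Arc, Dusp2, Dusp9 and the genes overlapping exons were named after their values were seen. Deviations from the group means correlated at -0.164, 0.258 and -0.0355 between mice sharing a number, so the numbers were not taken to pair the mice.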

Additional observations from a re-analysis of the deposited data

How the results depend on the processing

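The number of the 10 feedback genes called was 0 with all 6 mice and stayed 0 under every other test, scaling, filter and covariate. With a single mouse left out it ran from 0 to 1. The 1 was Spred2 without control mouse 3, where 29 of all genes were called, against 2 with all 6 mice. In a fit on the 4 mice with lower striatal markers, added after the data were seen, it was also 1 of the 10 and 27 of all genes. The 1 was again Spred2, at a log2 fold change of -0.37 (adjusted p = 0.0294, edgeR's quasi-likelihood test). In those 4 mice Dusp1 was at -0.20 and Dusp4 at -0.62, against -0.34 and -0.38 in all 6. The cause was not tested. The count at an unadjusted p under 0.05 was 4 or 5 under the other tests, scalings, filters and covariates, and ran from 2 to 5 with a mouse left out. It was 7 in the 4 mice, where the share of all genes was 8.74%, against 4.23% in all 6. That share was 7.18% with the striatal covariate and 11.7% without control mouse 3. The median log2 fold change of the 10 ran from -0.18 to -0.09 with a mouse left out.

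The number of other pathway genes called was 0 with the quasi-likelihood test, where 2 of all genes were called. It was 3 with DESeq2 (18 of all genes), 4 with the edgeR likelihood ratio test (28 of all genes), 4 with the striatal covariate (30 of all genes) and 4 in the 4 mice with lower striatal markers. It ran from 0 to 4 with a mouse left out, the 4 coming without control mouse 3. With replicate number as a replicate block it was 2, Egr1 and Fos, with 7 of all genes called. Under the block the number of the 10 genes called was 0, and 4 rather than 5 had an unadjusted p under 0.05, Dusp14 being above it. Only the mice with replicate number 2 correlated best with each other, a hint from the data and not from the design. Depth limits Dusp4, Dusp5 and Spry4 most, with counting errors of 6.67%, 5.40% and 4.87% of the value.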
